A study of Mus musculus with 18 samples.

Results

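Thymocytes that carried the OT2 receptor were compared with thymocytes that carried the OT1 receptor, both from mice whose tissues expressed the antigen of these receptors. The cells were chosen by their hashtag, an oligonucleotide-tagged antibody that marks all cells of 1 mouse before they are pooled. The OT2 NegSelected mouse contributed 177 cells and the OT1 NegSelected mouse 204 cells, together 381 of the 1331 cells and 6 mice of the series. Each group was 1 mouse, so no difference had a replicate check. All intervals are at the 95% level and cover counting error only.

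RNA and surface proteins were counted in the same cells, which were pooled in 1 lane. The OT2 NegSelected cells came from CD45.1.2 donor marrow of the OT.2 strain, and the OT1 NegSelected cells from CD45.1.2 donor marrow of the OT.1 strain, each crossed with the B6.CD451(MV) strain. In both groups 30% donor marrow was mixed with 70% competitor marrow of the B6.CD451(MV) strain and given to a CD45.2 recipient that carried the RIPmOVA transgene. The strain name of that host gives an Ins2 promoter and a TFRC/OVA fusion, so the antigen was driven by an insulin promoter. Per the labels both mice were female B6 animals of 14 weeks, taken 6 weeks after transplantation, and neither sample was a pool of mice. Thymi were dissociated mechanically and donor cells were sorted as CD44lo CD45.1.2+ Va2+ Vb5+. The sort therefore fixed both variable regions of the receptor and removed cells with much CD44. The hosts of the remaining mice were wild type (PosSelected), or lacked MHC class II for OT2 and B2m for OT1 (NoSelection), and their values are given only beside a result.

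OT1 and OT2 are transgenic alpha beta T cell receptors for peptides of ovalbumin. OT1 sees its peptide on MHC class I with CD8 as co-receptor, and OT2 sees its peptide on MHC class II with CD4. Thymocytes normally pass from a CD4-CD8- stage to a CD4+CD8+ stage, where the receptor is first tested on self peptides, and then become CD4 or CD8 single-positive cells. Strong recognition of antigen can lead to death, to loss of co-receptors, or to an agonist-selected fate. Under an insulin promoter, ovalbumin is known to be made in pancreatic beta cells and in medullary epithelial cells of the thymus.

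The tags that assigned cells to mice and to stages are shown because every comparison here rests on them. Capitals in the hashtags mark the 10 of 15 bases at which they differ from each other, and capitals in the CD4 and CD8A tags mark the 12 of 15 bases at which those differ from each other. All are designed oligonucleotides and are printed 5′ to 3′.
HT13, hashtag of the OT2 NegSelected mouse: ctACAtTGCGAtTTg
HT5, hashtag of the OT1 NegSelected mouse: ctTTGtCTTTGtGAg
CD4 antibody: AacAAgACCCTTGAG
CD8A antibody: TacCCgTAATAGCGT

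Depth differed between the mice. The OT2 cells held 589450 RNA UMIs in all with a median of 2756 per cell (686 to 13858), against 1276716 UMIs and a median of 5139 (704 to 29365) in OT1 cells. The median number of genes per cell was 1480 in OT2 and 2262.5 in OT1, and the median mitochondrial share was 1.83% in OT2 and 1.17% in OT1. Antibody depth was closer, with medians of 4859 UMIs per OT2 cell and 4838 per OT1 cell. A set of cells carried few antibodies of any kind: 49 OT2 cells (27.7%) and 39 OT1 cells (19.1%) had under 2500 antibody UMIs, a limit chosen after the data were seen. RNA levels are given as CPM, the UMIs of a gene scaled by all RNA UMIs of the mouse; a count of 0 allowed up to 5.09 CPM in OT2 and 2.35 CPM in OT1. No barcode was shared between mice.

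The labels were checked against receptor and lineage RNA. Trbv12-2, 1 of the V segments of the Vbeta5 family (chromosome 6, 41118864 to 41119364, mm10), had 607 UMIs in OT2 and 17 in OT1. Trbv12-1 of the same family (chromosome 6, 41113567 to 41114067) had 109 UMIs in OT2 and 3959 in OT1. Each mouse thus had mainly a different segment of the sorted family, although reads of these near-identical genes may be split between them in the counting. The same segment led in the OT2 and in the OT1 cells of both other kinds of host. The T cell genes Cd3e (704 UMIs in OT2 and 1020 in OT1) and Lck (491 UMIs in OT2 and 775 in OT1) were present in both mice. Defining genes of other lineages were at or near 0: Csf1r, Ncr1, Foxn1, Psmb11, Krt5 and Krt8 had no UMI in either mouse, and the erythroid genes had 0 UMIs in OT2 and 2 in OT1. Xist, the RNA that coats the inactive X chromosome, had 299 UMIs in OT2 and 1 in OT1, while the Y-linked genes Ddx3y, Eif2s3y, Kdm5d and Uty had 0 UMIs in both. Both mice are labelled female.

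More OT2 than OT1 cells carried CD4, CD8A or both, and most OT1 cells carried neither. CD4 antibody had a median of 91 UMIs per OT2 cell (quartiles 17 and 150), against 10 per OT1 cell (5 and 30.5). CD8A antibody had a median of 59 UMIs per OT2 cell (20 and 263), against 15 per OT1 cell (9 and 49.3). Cells were placed in 4 gates by thresholds of 82.7 CD4 UMIs and 52.9 CD8A UMIs, from a mixture of 2 Gaussians fitted to the cells of all 6 mice. The plot of single cells shows both distributions with these thresholds.

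**Figure D1:**
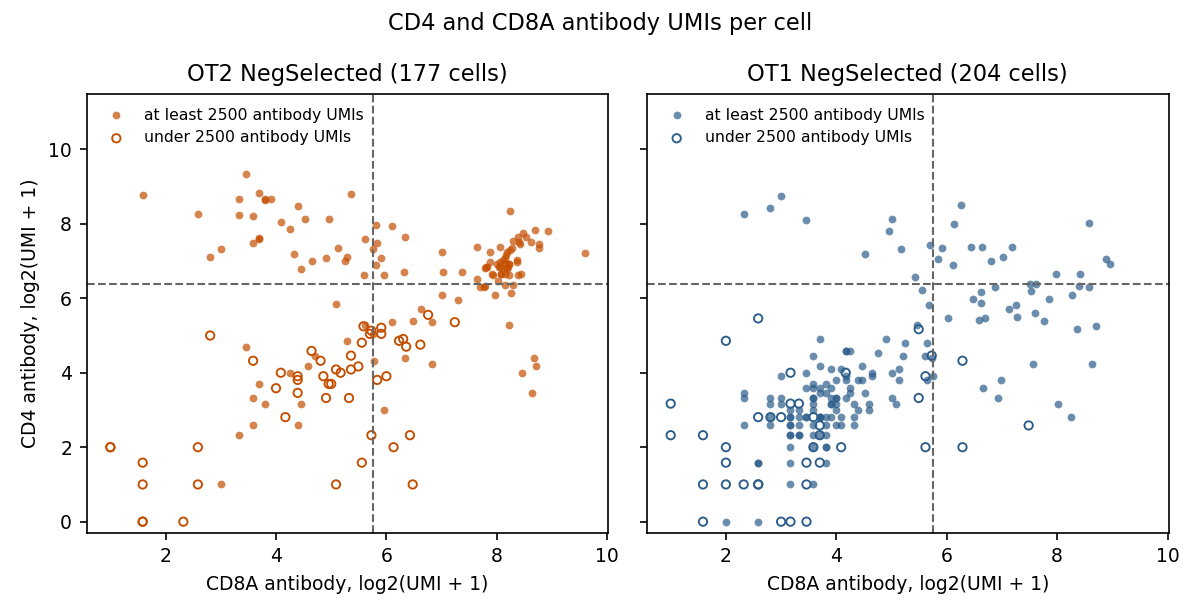
CD8A antibody UMIs (horizontal axis) and CD4 antibody UMIs (vertical axis) per cell, both as log2(UMI + 1), for OT2 NegSelected cells on the left and OT1 NegSelected cells on the right, with the gate thresholds as dashed lines and cells under 2500 antibody UMIs as open circles. The lower left gate holds 51 of 177 OT2 cells and 147 of 204 OT1 cells, and the upper right gate 60 OT2 cells and 15 OT1 cells.

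The CD4+CD8+ gate held 60 OT2 cells (33.9%, Clopper-Pearson interval 27.0 to 41.4) and 15 OT1 cells (7.35%, 4.17 to 11.8), a difference of 26.6 points (Newcombe interval 18.6 to 34.3). The CD4-CD8- gate held 51 OT2 cells (28.8%, 22.3 to 36.1) and 147 OT1 cells (72.1%, 65.4 to 78.1), a difference of -43.3 points (-51.7 to -33.6). The CD4+CD8- gate held 30 OT2 cells (17.0%) and 10 OT1 cells (4.90%), a difference of 12.1 points (5.86 to 18.7). The CD4-CD8+ gate held similar shares, with 36 OT2 cells (20.3%) and 32 OT1 cells (15.7%) and an interval of the difference, -3.05 to 12.5 points, that spans 0. At these thresholds, the single-positive gate that matches the co-receptor of each transgene thus held 17.0% of OT2 cells (CD4+CD8-) and 15.7% of OT1 cells (CD4-CD8+). Counted over both mice together, 48 cells were no more than 0.5 log2 units from the CD4 limit, and 53 cells from the CD8A limit.

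Antibody-poor cells were unevenly spread over the gates. Of the 51 CD4-CD8- OT2 cells 36 were antibody-poor, against 36 of the 147 CD4-CD8- OT1 cells, and the median antibody count of that gate was 1128 UMIs in OT2 and 4519 in OT1. Their part in the gate shares is shown by leaving them out. Without antibody-poor cells, the CD4-CD8- share was 11.7% of 128 OT2 cells and 67.3% of 165 OT1 cells, and the CD4+CD8+ share was 46.9% of OT2 and 9.09% of OT1 cells. With gates drawn on antibody UMIs per 10000, the CD4+CD8+ gate held 80 of 177 OT2 cells and 9 of 204 OT1 cells, and the CD4-CD8- share was 18.6% in OT2 and 69.6% in OT1. The differences in the CD4+CD8+ and CD4-CD8- gates kept their sign on both scales and without antibody-poor cells. The single-positive gate matching the co-receptor held 23.2% of OT2 and 14.7% of OT1 cells per 10000. Without antibody-poor cells it held 23.4% of OT2 and 17.6% of OT1 cells. In the CD4-CD8+ gate 13 of 36 OT2 cells and 3 of 32 OT1 cells were antibody-poor.

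**Figure D2:**
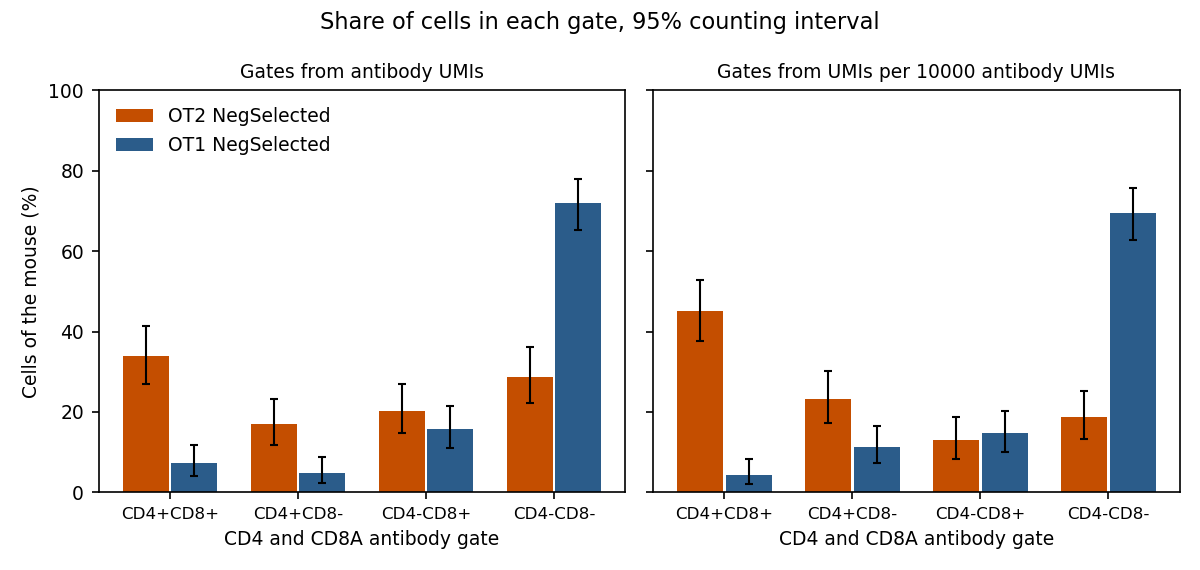
Percent of cells (vertical axis) in each CD4 and CD8A antibody gate for OT2 (orange) and OT1 (blue) NegSelected cells, with gates from antibody UMIs on the left and from UMIs per 10000 antibody UMIs on the right; lines are Clopper-Pearson 95% intervals. On the left the CD4+CD8+ share is 33.9% in OT2 and 7.35% in OT1, and the CD4-CD8- share 28.8% in OT2 and 72.1% in OT1.

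Among hosts without antigen, the gate pattern differed between PosSelected and NoSelection hosts. In PosSelected hosts the CD4+CD8+ gate held 8.66% of OT2 cells and 11.7% of OT1 cells, with an interval of the difference of -8.19 to 2.19 points. In NoSelection hosts it held 29.6% of OT2 cells and 2.94% of OT1 cells, a difference of 26.7 points (18.5 to 36.0), close to the difference in NegSelected hosts. The CD4-CD8- gate held 33.5% of OT2 and 48.9% of OT1 cells in PosSelected hosts, and 50.9% of OT2 and 82.0% of OT1 cells in NoSelection hosts, so OT1 had the larger share in every kind of host. The CD4+CD8- gate held 54.3% of OT2 and 8.51% of OT1 cells in PosSelected hosts, and 6.48% of OT2 and 3.27% of OT1 cells in NoSelection hosts. The differences between hosts were not tested.

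Over all cells, RNA was summed per mouse and compared as CPM. Of 5725 genes with at least 50 UMIs over both mice, 205 (3.58%) were at least 2-fold higher in OT2 and 218 (3.81%) at least 2-fold lower. The median log2 ratio of all 5725 genes was 0.06. The split depends on scaling: with TMM factors 123 were higher and 274 lower, with the median of all genes at -0.07. In summed RNA, fewer cells of a kind and less RNA per cell cannot be told apart.

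**Figure D3:**
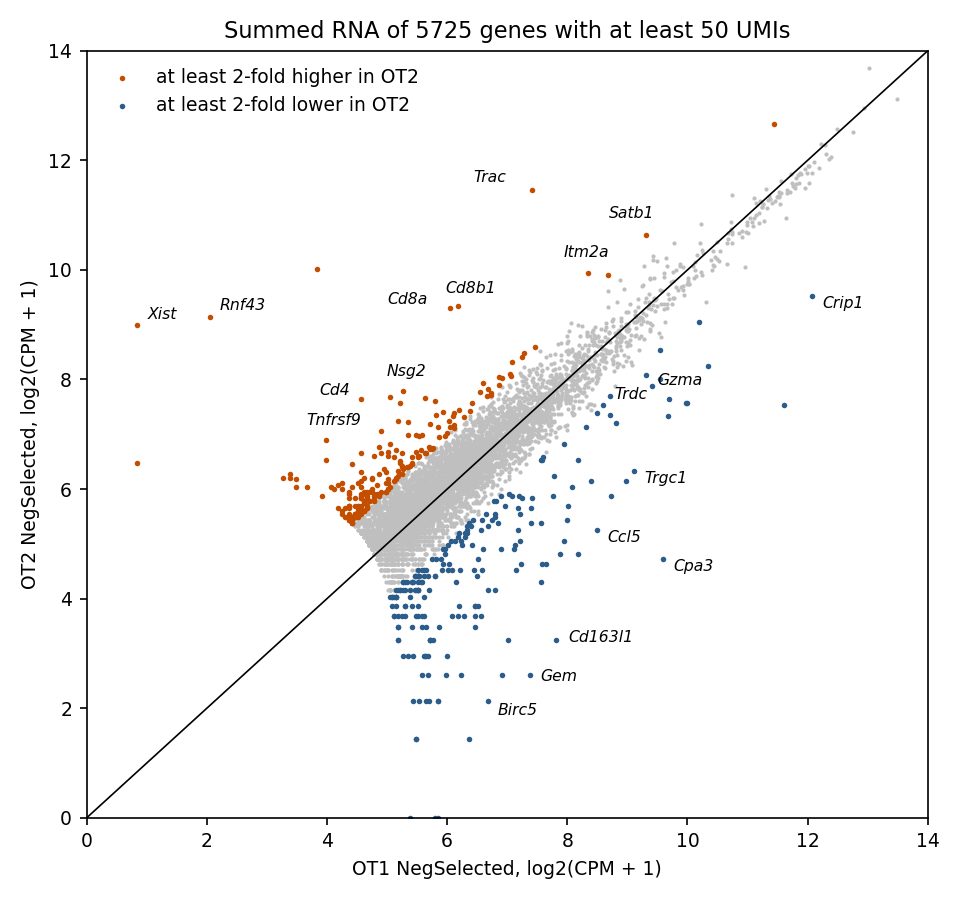
Summed RNA of the 5725 genes with at least 50 UMIs, as log2(CPM + 1), in OT1 NegSelected cells (horizontal axis) and OT2 NegSelected cells (vertical axis). Orange points lie at least 2-fold above the line of equal CPM (205 genes) and blue points at least 2-fold below it (218 genes); Trac, Cd8a, Cd8b1, Cd4 and Rnf43 stand above it, and Cpa3, Gem, Cd163l1 and Ccl5 below.

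After Xist and Rnf43, the genes highest in OT2 by ratio were the receptor alpha chain and the co-receptors. Trac, the constant region of the alpha chain (chromosome 14, 54220521 to 54224198), had 1655 UMIs in OT2 and 216 in OT1, or 2808 CPM in OT2 and 169 CPM in OT1, a ratio of 16.6 (14.4 to 19.2). The beta chain constant regions were near even, with ratios of 0.93 for Trbc1 (0.82 to 1.05) and 0.94 for Trbc2 (0.87 to 1.02). Trac also stood 7.29-fold higher in OT2 than in OT1 cells of PosSelected hosts and 11.7-fold higher in NoSelection hosts, so OT2 had more in all 3 kinds of host.

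Co-receptor RNA followed the antibodies. Cd8a (chromosome 6, 71373427 to 71379171), the CD8 alpha chain, had 370 UMIs in OT2 and 83 in OT1, or 628 CPM in OT2 and 65.0 CPM in OT1, a ratio of 9.66 (7.59 to 12.4). Cd8b1, the CD8 beta chain, had 384 UMIs in OT2 and 91 in OT1, a ratio of 9.14 (7.26 to 11.6). Cd4 (chromosome 6, 124864693 to 124888247) had 117 UMIs in OT2 and 29 in OT1, a ratio of 8.74 (5.78 to 13.6). The 2 co-receptors differed across hosts: Cd4 was higher in OT2 in PosSelected (7.38) and NoSelection (5.97) hosts too, while Cd8a was lower in OT2 in PosSelected hosts (0.46) and higher in NoSelection hosts (3.06). With both mice given the same mix of gates, the log2 ratio of Cd4 was 1.72, and 1.14 with gates per 10000, against 3.13 over all cells. That of Cd8a was 2.90, and 1.87 with gates per 10000, against 3.27 over all cells.

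Apart from Xist, the other 7 genes named as higher are neither receptor nor co-receptor genes. Rnf43 (chromosome 11, 87663087 to 87735539), a membrane ubiquitin ligase that removes Wnt receptors, had 334 UMIs in OT2 and 4 in OT1, a ratio of 181 (70.0 to 668). It reached 12 UMIs in a single OT2 cell and at most 1 in an OT1 cell, and its ratio was 126 in PosSelected and 153 in NoSelection hosts. Nsg2, a neuronal vesicle protein also expressed in thymocytes, had 130 UMIs in OT2 and 48 in OT1 (ratio 5.87, 4.18 to 8.35). Glcci1 (5.27), Ets2, a transcription factor (4.57), Ldhb, a lactate dehydrogenase subunit (4.16), and Slco3a1, an anion transporter (3.85), completed the set. Tnfrsf9, which encodes the co-stimulatory receptor 4-1BB and is induced by receptor signals, had 89 UMIs in OT2 and 45 in OT1 (ratio 4.28, 2.96 to 6.28); 52.8% of its OT2 UMIs and 84.4% of its OT1 UMIs lay in 5 cells. Its log2 ratio was 2.10, and 0.81 at the same gate mix.

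The genes lowest in OT2 by ratio were of several kinds. Ccnb2 (1 UMI in OT2 and 104 in OT1), Birc5 (2 UMIs in OT2 and 129 in OT1) and Ube2c (3 UMIs in OT2 and 152 in OT1) act in mitosis, with ratios of 0.021 (0.00052 to 0.12), 0.034 (0.004 to 0.12) and 0.043 (0.0087 to 0.13). The histone genes H1f5 (16 UMIs in OT2 and 370 in OT1), H1f3 (16 UMIs in OT2 and 300 in OT1) and H3c6 (6 UMIs in OT2 and 111 in OT1) had ratios of 0.094, 0.12 and 0.12. These genes mark dividing cells, as do those of the cell cycle list.

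Cpa3 (chromosome 3, 20215616 to 20242209), a carboxypeptidase of mast cells and of some early lymphoid cells, had 15 UMIs in OT2 and 985 in OT1, or 25.5 CPM in OT2 and 772 CPM in OT1, a ratio of 0.033 (0.018 to 0.055). The upper quartile of Cpa3 was 0 UMIs per OT2 cell and 8 per OT1 cell. Cpa3 was also lower in OT2 in PosSelected (0.44) and NoSelection (0.21) hosts. Gem, a small GTPase induced by activation, had 3 UMIs in OT2 and 211 in OT1 (ratio 0.031, 0.0063 to 0.091). Cd163l1, a scavenger receptor of gamma delta T cells, had 5 UMIs in OT2 and 285 in OT1 (ratio 0.038, 0.012 to 0.090). Alox5ap, which serves leukotriene synthesis (5 UMIs in OT2 and 164 in OT1), and Ctla2a, a protease inhibitor (11 UMIs in OT2 and 241 in OT1), had ratios of 0.066 and 0.099.

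Ccl5, a chemokine of cytotoxic cells, had 22 UMIs in OT2 and 459 in OT1 (ratio 0.10, 0.064 to 0.16). This difference rested on few cells, since 99.8% of the OT1 UMIs lay in 5 cells, and 418 of the 459 lay in the CD4-CD8+ gate. Within the CD4-CD8- gate Ccl5 was higher in OT2, with 20 UMIs in OT2 and 41 in OT1 and a ratio of 2.08. Gzma, the granule protease granzyme A, had 111 UMIs in OT2 and 1290 in OT1 (ratio 0.19, 0.15 to 0.23). Myo6, a myosin, and Coro2a, a coronin, had ratios of 0.26 (22 UMIs in OT2 and 184 in OT1) and 0.45 (21 UMIs in OT2 and 101 in OT1). These 4 genes were named for being past 2-fold lower in NegSelected hosts with ratios above 1 in both other kinds of host. The ratios in those other hosts ran from 1.05 to 2.59. Their intervals excluded 1 in both kinds for Gzma and Myo6, and in NoSelection hosts alone for Ccl5. The Ccl5 ratios there rest on single cells too: 40 of 40 OT2 and 62 of 64 OT1 UMIs lay in 1 cell in PosSelected hosts, and 22 of 27 OT2 and 36 of 37 OT1 UMIs in NoSelection hosts. At the same gate mix per 10000 the log2 ratio of Coro2a was -0.07, against -1.15 over all cells.

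Within the CD4+CD8+ gate RNA of the receptor alpha chain and of CD8 was higher in OT2, and RNA of the beta chain was lower. Of 671 genes with at least 50 UMIs, 89 (13.3%) were at least 2-fold higher in OT2 and 60 (8.94%) at least 2-fold lower; with DESeq2 size factors 61 were higher and 95 lower. Trac had 768 UMIs in OT2 and 19 in OT1 (ratio 23.3, 14.8 to 38.9), Cd8a 186 UMIs in OT2 and 12 in OT1 (ratio 8.93, 4.99 to 17.6) and Cd8b1 167 UMIs in OT2 and 15 in OT1 (ratio 6.41). The beta chain constant regions had ratios of 0.57 for Trbc1 (0.44 to 0.73) and 0.74 for Trbc2 (0.63 to 0.88). Rnf43 had 124 UMIs in OT2 and 0 in OT1. Dock2, a guanine exchange factor for Rac (3.59), Camk1d, a kinase (2.98), and Malat1, a nuclear noncoding RNA (2.34), were also higher.

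The 7 lower genes that met the naming rule in that gate were Hmgb2, Hmgn2, H2az1, Ptma, Anp32b, Hmgb1 and Ppia. Hmgb2, a chromatin protein of dividing cells, had 13 UMIs in OT2 and 161 in OT1 (ratio 0.047, 0.024 to 0.082). Hmgn2 (0.14), H2az1 (0.22), Ptma (0.28), Anp32b (0.30) and Hmgb1 (0.35) also encode nuclear or chromatin proteins, and Ppia (0.41) encodes cyclophilin A. Dntt and Arpp21, genes of CD4+CD8+ cells before selection, were higher in OT2: Dntt, the terminal transferase of receptor rearrangement, had 82 UMIs in OT2 and 9 in OT1 (ratio 5.25, 2.63 to 11.9), and Arpp21 67 UMIs in OT2 and 12 in OT1 (ratio 3.22). Rag1, a recombinase subunit, had 25 UMIs in OT2 and 11 in OT1 and a ratio of 1.31 with an interval that spans 1 (0.62 to 2.95). Only 15 OT1 cells with 79935 RNA UMIs lay in this gate, against 60 OT2 cells with 138797. With gates per 10000 antibody UMIs the OT1 side shrank to 9 cells, and 107 of 691 genes (15.5%) were at least 2-fold higher and 26 (3.76%) lower.

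Within the CD4-CD8- gate OT2 cells were higher for Trac, Cd8a, Cd8b1 and some post-selection genes, and lower for a set of effector and innate genes. Of 4061 genes with at least 50 UMIs, 119 (2.93%) were at least 2-fold higher in OT2 and 187 (4.60%) at least 2-fold lower; with TMM factors 61 were higher and 273 lower. Trac had 440 UMIs in OT2 and 113 in OT1 (ratio 16.6, 13.5 to 20.6), Cd8a 86 UMIs in OT2 and 32 in OT1 (ratio 11.48, 7.57 to 17.8) and Cd8b1 94 UMIs in OT2 and 36 in OT1 (ratio 11.2). Itm2a, a membrane protein induced at positive selection, had 215 UMIs in OT2 and 197 in OT1 (ratio 4.66, 3.82 to 5.68). Satb1, a chromatin organiser of thymocytes, had 273 UMIs in OT2 and 331 in OT1 (ratio 3.52, 2.99 to 4.15), and Cd28, the co-stimulatory receptor, 64 UMIs in OT2 and 82 in OT1 (ratio 3.33, 2.37 to 4.68).

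Lower in OT2 in that gate were Cpa3 (15 UMIs in OT2 and 928 in OT1, ratio 0.069, 0.038 to 0.11), Gem (1 UMI in OT2 and 195 in OT1, ratio 0.022, 0.00055 to 0.12), the interferon-induced Isg15 (3 UMIs in OT2 and 195 in OT1, ratio 0.066, 0.013 to 0.19), Ly6a, which encodes SCA1 (2 UMIs in OT2 and 112 in OT1, ratio 0.076, 0.0091 to 0.28), Cd163l1 (5 UMIs in OT2 and 279 in OT1, ratio 0.077), Ctla2a (4 UMIs in OT2 and 223 in OT1, ratio 0.077), the chemokine receptor Ccr8 (2 UMIs in OT2 and 107 in OT1, ratio 0.080, 0.0095 to 0.3) and Alox5ap (3 UMIs in OT2 and 159 in OT1, ratio 0.081, 0.016 to 0.24). Each of these 8 genes had at most 15 UMIs over the 51 OT2 cells. With gates per 10000 antibody UMIs, 146 of 3970 genes (3.68%) were at least 2-fold higher and 189 (4.76%) lower.

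The CD4-CD8- OT2 cells split by antibody depth. The 36 antibody-poor OT2 cells had 80 Cd8a UMIs (605 CPM, Poisson interval 480 to 753), 19 Cd4 UMIs (144 CPM) and 13 Rag1 UMIs (98.4 CPM). The 15 antibody-rich OT2 cells had 6 Cd8a UMIs (65.4 CPM, 24.0 to 142) and no Cd4 or Rag1 UMI. In OT1, the 36 antibody-poor cells had 31 Cd8a UMIs (141 CPM) and the 111 antibody-rich cells 1 Cd8a UMI (1.36 CPM). In both mice the CD4-CD8- cells with few antibody UMIs had the higher Cd8a level.

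With antibody-rich cells only, 233 of 2918 genes (7.98%) were at least 2-fold higher in OT2 and 278 (9.53%) lower in the CD4-CD8- gate. Trac kept a ratio of 7.18 (67 UMIs in OT2 and 75 in OT1), Cd28 of 5.19 (31 UMIs in OT2 and 48 in OT1), Itm2a of 2.01 (1.24 to 3.14) and Satb1 of 1.94 (1.38 to 2.68). Cd8b1 had 2 UMIs in OT2 and 10 in OT1 and a ratio of 1.61 (0.17 to 7.54), against 11.2 over the whole gate. Cd8a stayed higher in OT2, with 6 UMIs in OT2 (65.4 CPM) and 1 UMI in OT1 (1.36 CPM). Both CD8 genes rested on few UMIs here. Cpa3 stayed lower at 14 UMIs in OT2 and 862 in OT1 (ratio 0.13, 0.071 to 0.22), as did Cd163l1 (3 UMIs in OT2 and 195 in OT1, ratio 0.12, 0.025 to 0.37).

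In the single-positive gates counts were thinner. In the CD4+CD8- gate 14 of 358 genes (3.91%) were at least 2-fold higher and 8 (2.23%) at least 2-fold lower in the 30 OT2 cells than in the 10 OT1 cells; Tox, a factor of CD4 lineage development, had 94 UMIs in OT2 and 9 in OT1 (ratio 4.18), and Nr4a1, an immediate receptor-response gene, 30 UMIs in OT2 and 25 in OT1 (ratio 0.48). In the CD4-CD8+ gate 56 of 972 genes (5.76%) were higher and 78 (8.02%) lower in the 36 OT2 cells than in the 32 OT1 cells. There Xcl1, a chemokine, had 57 UMIs in OT2 and 0 in OT1, and over all cells each mouse had all its Xcl1 UMIs in at most 5 cells. Trdc, the gamma delta receptor constant region, had 9 UMIs in OT2 and 114 in OT1 in the CD4-CD8+ gate (0.14), and Mki67, a protein of dividing cells, 0 UMIs in OT2 and 57 in OT1.

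Gene lists were described by counts and by the median log2 ratio of their members with at least 50 UMIs, beside the median of 0.06 for all such genes. Because gate shares differed, each median was also computed after both mice were given the same mix of gates; the median of all genes was then 0.07. The backgrounds for counts past 2-fold are 3.58% higher and 3.81% lower. TMM factors lowered all list medians by the same shift as the median of all genes, which turned the direction of the heat shock list alone (to -0.05).

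**Figure D4:**
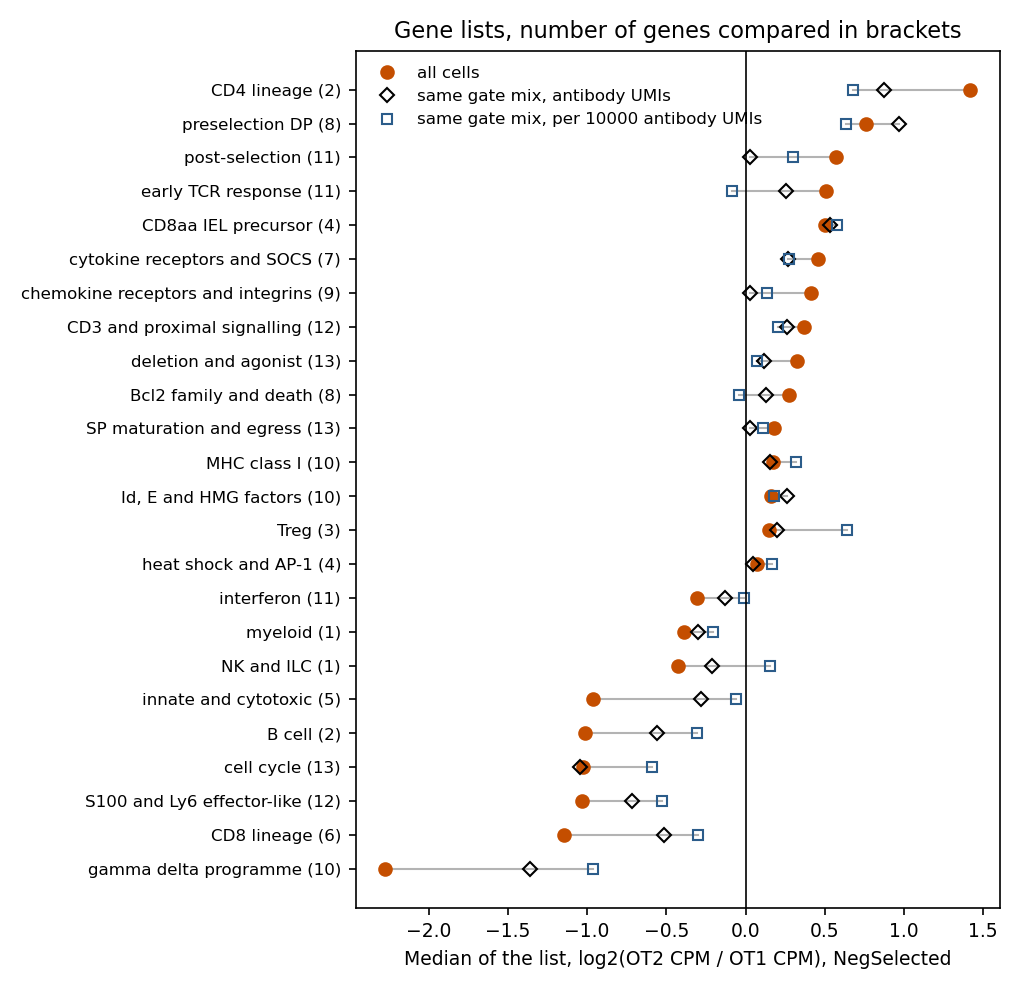
Median log2 ratio of OT2 to OT1 CPM in NegSelected hosts (horizontal axis) for each gene list, with the number of genes compared in brackets; filled circles use all cells, open diamonds the same gate mix from antibody UMIs, and open squares the same gate mix from UMIs per 10000. The gamma delta list lies at -2.28, -1.36 and -0.97 and the preselection list at 0.76, 0.97 and 0.64 on these 3 scales.

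Genes of CD4+CD8+ cells before selection were higher in OT2. Of 8 compared genes 3 were at least 2-fold higher and 0 lower, with a median of 0.76, and of 0.97 at the same gate mix. Their summed level was 2261 CPM in OT2 and 1321 CPM in OT1, a ratio of 1.71 (1.59 to 1.84). Rag1 (42 UMIs in OT2 and 13 in OT1, ratio 6.998, 3.69 to 14.2) and Themis, a signalling protein needed for positive selection (562 UMIs in OT2 and 520 in OT1, ratio 2.34, 2.07 to 2.64), led, while Dntt (159 UMIs in OT2 and 390 in OT1, ratio 0.88, 0.73 to 1.07) was near even over all cells. The list had a median of 0.07 in PosSelected and of 0.89 in NoSelection hosts.

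Early receptor-response genes were moderately higher in OT2 over all cells. Of 11 genes 2 were at least 2-fold higher and 0 lower, with a median of 0.51, which was 0.26 at the same gate mix and -0.09 with gates per 10000. Nr4a1, a nuclear receptor induced within the response, had 93 UMIs in OT2 and 98 in OT1 (ratio 2.06, 1.53 to 2.76), and Nr4a3 36 UMIs in OT2 and 37 in OT1 (ratio 2.11). Cd5, which tunes receptor signals, had 309 UMIs in OT2 and 339 in OT1 (ratio 1.97, 1.69 to 2.31), and the transcription factor Egr1 141 UMIs in OT2 and 165 in OT1 (ratio 1.85). Cd69 (1.14) and Dusp2 (0.96) were near even, and Myc, a growth regulator, had 35 UMIs in OT2 and 148 in OT1 (ratio 0.51). The list median was 0.05 in PosSelected and -0.21 in NoSelection hosts.

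Post-selection genes had a median of 0.57, with 3 of 11 at least 2-fold higher and 0 lower. The median was 0.03 at the same gate mix and 0.30 with gates per 10000. Itm2a had 577 UMIs in OT2 and 415 in OT1, or 979 CPM in OT2 and 325 CPM in OT1 (ratio 3.01, 2.65 to 3.43), with a median of 1 UMI per cell in both mice and an upper quartile of 4 in OT2 and 2 in OT1. Cd28 had 210 UMIs in OT2 and 197 in OT1 (ratio 2.31), and Il7r, the receptor for the survival cytokine IL-7, 126 UMIs in OT2 and 135 in OT1 (ratio 2.02). Itm2a was higher in OT2 in PosSelected hosts (1.41) and lower in NoSelection hosts (0.64).

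Genes of deletion and agonist selection did not all go one way, with 9 above a ratio of 1 and 4 below. Their summed level was 1.285-fold higher in OT2 over all cells (1.192 to 1.385) and 1.62-fold in the CD4+CD8+ gate (1.26 to 2.11). In the CD4-CD8- gate it was 1.06 (0.94 to 1.20), and 1.78 with antibody-rich cells of that gate alone (1.53 to 2.07). Of 13 genes 2 were at least 2-fold higher and 1 lower, with a median of 0.33, or 0.12 at the same gate mix and 0.07 with gates per 10000. Tnfrsf9 (4.28) and Xcl1 (70 UMIs in OT2 and 19 in OT1, ratio 7.98, 4.75 to 14.0) were higher, with the few-cell origin given above. Pdcd1, the inhibitory receptor PD-1, was lower (56 UMIs in OT2 and 245 in OT1, ratio 0.50, 0.36 to 0.66). Bcl2l11, which encodes the pro-apoptotic BIM, had 33 UMIs in OT2 and 72 in OT1 (ratio 0.99), Gadd45b 24 UMIs in OT2 and 58 in OT1 (ratio 0.90), and Ikzf2, the factor Helios of agonist-selected cells, 358 UMIs in OT2 and 711 in OT1 (ratio 1.09, 0.96 to 1.24). Ikzf2 had a median of 0 UMIs per OT2 cell and 2 per OT1 cell, at the unequal depths given above.

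Among lineage genes with enough UMIs for a comparison, the co-receptor genes followed the antibody gates, and the rest were lower in OT2. In the CD8 lineage list 2 of 6 genes (Cd8a and Cd8b1) were at least 2-fold higher and 3 at least 2-fold lower: Runx3, the CD8 lineage factor (34 UMIs in OT2 and 186 in OT1, ratio 0.40), Itgae, the integrin CD103 (8 UMIs in OT2 and 112 in OT1, ratio 0.15), and Cst7, a protease inhibitor (13 UMIs in OT2 and 85 in OT1, ratio 0.33). The median was -1.15 while the summed level was 2.004-fold higher in OT2 (1.83 to 2.20), so median and sum differed in sign. In the CD4 lineage list Cd4 and Gata3, a factor of CD4 lineage choice (88 UMIs in OT2 and 233 in OT1, ratio 0.82), were compared. Zbtb7b, which encodes ThPOK, had 9 UMIs in OT2 and 3 in OT1. Zbtb7b and Cd40lg had too few UMIs for a comparison, so their direction was not read. Mature single-positive genes had a median of 0.18, with 1 of 13 higher (Gimap3, a lymphocyte GTPase, 2.06) and 1 lower. Their summed level was 0.91 of that in OT1 (0.87 to 0.96), and 0.69 in the CD4-CD8- gate (0.63 to 0.75), so here too median and sum differed in sign.

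Genes of the gamma delta programme were lower in OT2. Of 10 genes 9 were at least 2-fold lower and 0 higher, with a median of -2.28, of -1.36 at the same gate mix and of -0.97 with gates per 10000. Their summed level was 594 CPM in OT2 and 3077 CPM in OT1 (0.19, 0.17 to 0.22), and in the CD4-CD8- gate 1362 CPM in OT2 and 3892 CPM in OT1 (ratio 0.35, 0.31 to 0.39). Sox13, a factor of early gamma delta cells, had 24 UMIs in OT2 and 241 in OT1 (ratio 0.22), Trdc 117 UMIs in OT2 and 1053 in OT1 (ratio 0.24, 0.20 to 0.29), Trgc1, a gamma chain constant region, 47 UMIs in OT2 and 707 in OT1 (ratio 0.14), Blk, a Src family kinase, 14 UMIs in OT2 and 242 in OT1 (ratio 0.13), and Etv5, a transcription factor, 34 UMIs in OT2 and 543 in OT1 (ratio 0.14). Reads of the closely related gamma chain constant regions may be split between them in the counting. Il23r had 0 UMIs in both. The summed level was also lower in OT2 in PosSelected (0.46) and NoSelection (0.51) hosts. All these cells were sorted for an alpha beta receptor. The antibody to the gamma delta receptor was near even, with 2536 UMIs in OT2 and 3229 in OT1 and a log2 ratio of -0.04.

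Effector-like genes were lower in OT2 as well. In the S100 and Ly6 list 7 of 12 genes were at least 2-fold lower and 1 higher, with a median of -1.03, or -0.72 at the same gate mix. Crip1, a LIM domain protein, had 436 UMIs in OT2 and 5504 in OT1 (740 CPM in OT2 and 4311 CPM in OT1, ratio 0.17, 0.16 to 0.19), Lgals1, a galectin, 111 UMIs in OT2 and 1305 in OT1 (ratio 0.18), and S100a6, a calcium-binding protein, 14 UMIs in OT2 and 254 in OT1 (ratio 0.12). Ly6c2 was the exception at 38 UMIs in OT2 and 15 in OT1 (ratio 5.49, 2.95 to 10.7). The list's summed level was also lower in OT2 in PosSelected (0.51) and NoSelection (0.55) hosts. Of the innate and cytotoxic list, 2 of 5 genes (Ccl5 and Gzma) were at least 2-fold lower, with a median of -0.96. The median was -0.28 at the same gate mix and -0.06 with gates per 10000.

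Cell cycle genes were lower in OT2 over all cells and in the CD4+CD8+ gate. Of 13 genes all had a ratio below 1 and 7 were at least 2-fold lower. The median was -1.03, and it was -1.04 at the same gate mix and -0.59 with gates per 10000. The summed level was 1483 CPM in OT2 and 2489 CPM in OT1 over all cells (ratio 0.60), and 1319 CPM in OT2 and 5592 CPM in OT1 in the CD4+CD8+ gate (0.24, 0.20 to 0.28). In the CD4-CD8- gate it was 1912 CPM in OT2 and 1979 CPM in OT1 (ratio 0.97, 0.87 to 1.07), and with antibody-rich cells of that gate alone 2988 CPM in OT2 and 1800 CPM in OT1 (ratio 1.66, 1.45 to 1.89), which turns its direction. Mki67 (17 UMIs in OT2 and 175 in OT1, ratio 0.21), Top2a, a topoisomerase (19 UMIs in OT2 and 188 in OT1, ratio 0.22), Rrm2, a ribonucleotide reductase subunit (17 UMIs in OT2 and 123 in OT1, ratio 0.30), and Cdk1, the mitotic kinase (2 UMIs in OT2 and 65 in OT1, ratio 0.067, 0.0079 to 0.25), were at the low end, and Mcm2, a replication helicase subunit (0.82), and Mcm6 (0.77) were nearer to even.

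The remaining lists, apart from markers of other cell types, had medians from -0.31 to 0.50 over all cells. All 12 genes of the CD3 complex and proximal signalling had ratios above 1, of which 1 (Themis) was past 2-fold, with a median of 0.37; Zap70, a proximal kinase at 1.04, was below 1 with TMM factors. Interferon-induced genes had a median of -0.31, with 0 of 11 higher and 3 lower (Isg15 at 0.29, Ifit1 at 0.30 and Usp18 at 0.30), against 1.11 in PosSelected hosts. The median was -0.13 at the same gate mix and -0.01 with gates per 10000. Their summed level was higher in OT2 in the CD4+CD8+ gate (ratio 1.87, 1.25 to 2.85) and lower in the CD4-CD8- gate (0.50, 0.42 to 0.58). MHC class I genes (0.17), the Bcl2 family (0.28) and heat shock genes (0.08) had 0, 1 and 0 genes past 2-fold; the 1 was Fas, a death receptor (56 UMIs in OT2 and 43 in OT1, ratio 2.82). In a list of Id, E, HMG and other nuclear factors of thymocytes, 10 genes were compared. Satb1 (938 UMIs in OT2 and 813 in OT1, ratio 2.50, 2.27 to 2.75) was the single one past 2-fold, beside ratios of 1.92 for Ets1, 1.64 for Lef1 and 1.02 for Tcf7. Cytokine receptors (0.46, Il7r past 2-fold of 7 genes), genes of CD8aa intraepithelial precursors (0.50, Xcl1 past 2-fold of 4) and chemokine receptors with integrins (0.41, Itgae and Ccr8 at least 2-fold lower of 9) had medians above that of all genes over all cells. At the same gate mix the chemokine receptor and integrin median was 0.03, below the 0.07 of all genes. The cytokine receptor (0.27) and intraepithelial precursor (0.53) medians stayed above it. The Treg list had a median of 0.15 over 3 genes, and its Foxp3 (11 UMIs in OT2 and 4 in OT1) and Il2ra (24 UMIs in OT2 and 11 in OT1) had too few UMIs for a comparison.

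Markers of other cell types were low. The B cell list summed to 227 CPM in OT2 and 342 CPM in OT1, mostly Ighm (126 UMIs in OT2 and 391 in OT1), while Ms4a1 and Ebf1 had 0 or 1 UMI. Besides Ighm, 1 more of its 6 members had enough UMIs for a comparison. Of these 2 genes 1 was at least 2-fold lower in OT2, with a median of -1.01, or -0.56 at the same gate mix. The myeloid list summed to 104 CPM in OT2 and 133 CPM in OT1, mostly Cst3, with Lyz2 at 1 UMI in OT2 and 0 in OT1. The NK and innate lymphoid list summed to 39.0 CPM in OT2 and 52.5 CPM in OT1, and epithelial RNA was 9 UMIs in OT2 and 11 in OT1 of Epcam.

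Surface antibodies were compared as antibody CPM, with isotype controls as background. The 9 isotype controls together had 3827 CPM in OT2 and 3862 CPM in OT1 (ratio 0.99, 0.94 to 1.04), at most 5.34 UMIs per OT2 cell and 5.59 per OT1 cell on average. Of 117 antibodies with at least 50 UMIs, 16 (13.7%) were at least 2-fold higher in OT2 and 7 (5.98%) at least 2-fold lower, with a median log2 ratio of 0.03. Several of these rested on single bright cells, so the count of each antibody in a cell was also limited to its 99th percentile; 6 were then higher and 5 lower.

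**Figure D5:**
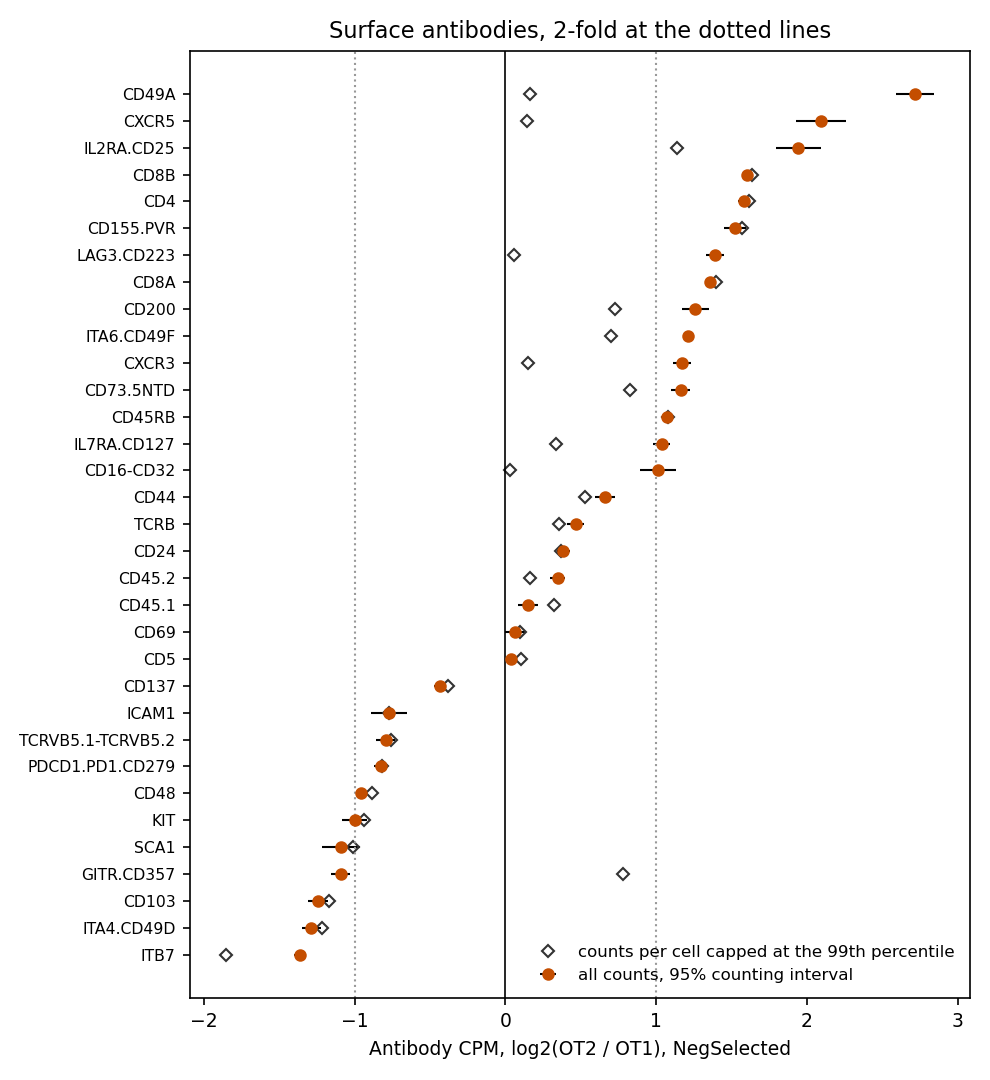
Ratio of OT2 to OT1 antibody CPM in NegSelected hosts (log2 scale) for selected antibodies with at least 500 UMIs, with all counts (circles, with 95% counting intervals) and with the highest counts limited to the 99th percentile (open diamonds, capped); dotted lines mark 2-fold. CD8B (3.04), CD4 (2.99), CD155 (2.87) and CD8A (2.57) stay above 2-fold when capped, and ITB7 (0.39) and CD49D (0.41) stay below.

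The antibodies higher in OT2 on both scales were CD8B (29208 UMIs in OT2 and 11939 in OT1, ratio 3.04), CD4 (18663 UMIs in OT2 and 7755 in OT1, ratio 2.99), CD155 (4995 UMIs in OT2 and 2159 in OT1, ratio 2.87, 2.73 to 3.02), CD8A (23300 UMIs in OT2 and 11285 in OT1, ratio 2.57), CD45RB, an isoform of the phosphatase CD45 (29614 UMIs in OT2 and 17486 in OT1, ratio 2.10), and CD25, the IL-2 receptor alpha chain (1567 UMIs in OT2 and 506 in OT1, ratio 3.85). CD155, a ligand of the nectin family, had a median of 23 UMIs per OT2 cell and 7.5 per OT1 cell, and was higher in OT2 in PosSelected (2.03) and NoSelection (3.20) hosts too. CD25 differed in few cells: 56.4% of its OT2 UMIs lay in 5 cells, both medians were 1 UMI, and its capped ratio was 2.20. Among those that passed uncapped only, LAG3 (2.62, capped 1.04) had 4710 of its 7278 OT2 UMIs in 1 cell, and CD83 had 139 of its 143 in 1 cell.

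The antibodies lower in OT2 on both scales included 3 integrins, which bind cells and matrix. The integrins ITB7 (0.39, medians 11 in OT2 and 58 in OT1), CD49D (0.41, medians 11 in OT2 and 27 in OT1) and CD103 (0.42, medians 11 in OT2 and 18 in OT1) were lower, CD103 beside its gene Itgae at 0.15. SCA1 was lower at 0.47, with medians of 2 UMIs in OT2 and 4 in OT1. PD-1 (0.56, medians 23 in OT2 and 53 in OT1), beside Pdcd1 RNA at 0.50, and CD48, a ligand of CD2 (0.52), had ratios below 1 but within 2-fold.

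Protein and RNA were set side by side for receptors and co-stimulatory molecules. CD137, the protein of Tnfrsf9, was lower in OT2 (0.74, medians 40 UMIs in OT2 and 58 in OT1) while its RNA was 4.28-fold higher. CD5 protein was near even (1.03, medians 339 in OT2 and 331 in OT1) while Cd5 RNA was 1.97-fold higher, and CD28 protein was 0.89 while Cd28 RNA was 2.31-fold higher. The Va2 antibody had medians of 19 UMIs per OT2 cell and 35 per OT1 cell, and the Vb5 antibody 10 in OT2 and 23 in OT1. By summed CPM the log2 ratio was -0.11 for Va2, near even, and -0.79 for Vb5. With counts per cell capped, the ratios were 0.85 for Va2 and 0.59 for Vb5. Trac RNA was 16.6-fold higher. Allotype antibodies were near even, with medians of 16 UMIs in OT2 and 14 in OT1 for CD45.1 and of 27 in OT2 and 26 in OT1 for CD45.2. CD69 (1.05), CD24 (1.30), TCR beta (1.38) and CD44 (1.58) were within 2-fold.

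Shares of cells with a UMI were compared after each cell was thinned to 1500 RNA UMIs, which kept 156 OT2 and 199 OT1 cells and left out 21 in OT2 and 5 in OT1. Cd8a was seen in 41.0% of OT2 cells (33.2 to 49.2) and 9.05% of OT1 cells (5.45 to 13.9), and in 0 cells of the CD4+CD8- gate of either mouse. Rag1 was seen in 8.33% of OT2 and 0.50% of OT1 cells. Cd4 was seen in 29.5% of OT2 and 4.02% of OT1 cells, but also in 6 of 30 OT2 and 1 of 30 OT1 cells of the CD4-CD8+ gate, which is low in its protein. The unthinned shares were 48.6% in OT2 and 14.7% in OT1 for Cd8a and 43.5% in OT2 and 9.31% in OT1 for Cd4.

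Genes lower in OT2 by sum were also seen in fewer OT2 cells. Trdc was seen in 10.9% of OT2 and 50.8% of OT1 cells (unthinned 12.99% in OT2 and 73.53% in OT1), and Sox13 in 3.85% of OT2 and 18.1% of OT1 cells, with neither in any CD4+CD8+ cell after thinning (49 OT2 and 14 OT1 cells). Itm2a was seen in 47.4% of OT2 and 30.7% of OT1 cells (unthinned 57.1% in OT2 and 52.0% in OT1), and Tnfrsf9 in 10.3% of OT2 and 3.02% of OT1 cells. Unthinned, Tnfrsf9 was seen in 10.2% of OT2 and 5.88% of OT1 cells, and the interval of that difference, -1.21 to 10.2 points, spans 0, as it does when thinned to 1000. Ikzf2 was seen in 31.4% of OT2 and 44.2% of OT1 cells (unthinned 80 of 177 in OT2 and 152 of 204 in OT1), whereas its CPM ratio of 1.09 had an interval that spans 1, so no order is read from its share.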

How the data were processed

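The libraries were of the 10x Genomics 5' v2 kind, with TotalSeq-C tags for proteins, per the labels' protocols. Reads were processed with Cell Ranger 8.0.1 and Seurat, whose version is absent, against mm10, as the submitters' processing notes list them. The authors deposited raw UMI counts per gene and cell and per antibody and cell, without normalization. The hashtag caller, the cell filters and the treatment of doublets are not given in the sources used here, and no doublet caller was run; receptor libraries were not analysed here. Of the deposited cells, 0 had under 500 genes and 0 were over 10% mitochondrial, so no cell was removed; 0 columns stayed unmatched.

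Counts were summed per mouse with Python 3.11.15, numpy 2.4.6, pandas 2.3.3 and scipy 1.17.1, and divided by the mouse's total (CPM; hashtags left out for antibodies). Ratios have exact conditional binomial intervals, shares Clopper-Pearson and differences Newcombe intervals, CPM exact Poisson intervals; a count of 0 allows 3 counts. No p-value was computed, since each group is 1 mouse. Gates came from scikit-learn 1.9.0. Scaling factors came from edgeR 4.0.16 (TMM) and DESeq2 1.42.0 in R 4.3.3; neither was used for a test. The ratio code was tested on simulated data. Gene positions are from RefSeq (GRCm38.p6).

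Named genes were up to 12 higher and 12 lower by ratio (at least 100 UMIs, interval excluding 2-fold; receptor segments, ribosomal, mitochondrial and Gm or Rik models left out), up to 8 each within the CD4+CD8+ and CD4-CD8- gates, up to 6 each past 2-fold in NegSelected hosts and on the other side of 1 in both other hosts, members of 26 lists (235 of 236 genes found), up to 10 antibodies each way (at least 500 UMIs), and receptor segments. Members and lists were chosen with earlier results of these data known. Genes named within the single-positive gates, and antibodies outside the rule, were chosen after their values were seen. Some genes stand in more than 1 list. The labels give the OT2 NoSelection host as lacking MHC class II in one field and B2m in another; the first was used. Some genes and antibodies that the rule names are not reported here.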

Additional observations from a re-analysis of the deposited data

Results flagged for a closer look

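The following ratios of OT2 to OT1 in NegSelected hosts lay on one side of 1 and those of another kind of host on the other, with counting intervals that both exclude 1; the difference between hosts was not tested. Against PosSelected hosts, Cd8a was 9.66 in NegSelected hosts and 0.46 in PosSelected hosts (0.39 to 0.55), and Cd8b1 was 9.14 in NegSelected and 0.61 in PosSelected hosts (0.52 to 0.72). The antibodies gave 2.57 in NegSelected and 0.32 in PosSelected hosts for CD8A, 3.04 in NegSelected and 0.36 in PosSelected hosts for CD8B, 2.10 in NegSelected and 0.91 in PosSelected hosts for CD45RB, 2.26 in NegSelected and 0.83 in PosSelected hosts for CXCR3, 4.27 in NegSelected and 0.63 in PosSelected hosts for CXCR5, and 3.85 in NegSelected and 0.85 in PosSelected hosts for CD25. In the other direction, Gzma was 0.19 in NegSelected and 1.22 in PosSelected hosts, and Myo6 was 0.26 in NegSelected and 1.68 in PosSelected hosts. Against NoSelection hosts, Ccl5 was 0.10 in NegSelected and 2.59 in NoSelection hosts, Gzma was 0.19 in NegSelected and 1.12 in NoSelection hosts, Myo6 was 0.26 in NegSelected and 2.11 in NoSelection hosts, and the antibody LAG3 was 2.62 in NegSelected and 0.79 in NoSelection hosts. CXCR3, CXCR5 and LAG3 were under 2-fold in NegSelected hosts once counts per cell were capped, at 1.11, 1.10 and 1.04, and Ccl5 rested on 5 OT1 cells in NegSelected hosts and, in NoSelection hosts, on 1 cell a mouse that held 22 of 27 OT2 and 36 of 37 OT1 UMIs.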

How the results depend on the processing

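No paired analysis was possible because each group is 1 mouse and the groups share only the number 1; leaving out a replicate was not possible either. Counts of genes past 2-fold over all cells (205 higher, 218 lower) were 123 higher with TMM and 125 higher with DESeq2 factors, 481 higher and 505 lower at a minimum of 20 UMIs, 27 and 55 at 200, 1944 and 961 at 1, and 67 and 59 with thinned cells. In the CD4+CD8+ gate (89 higher, 60 lower) they were 407 higher and 199 lower at 20 UMIs, 14 and 13 at 200, 1560 and 1082 at 1, 23 and 13 with thinned cells; 95 lower with DESeq2 factors, 30 lower with the mean of per-cell CPM, 31 lower without cells over the 95th percentile of RNA UMIs and 48 higher with raised thresholds. In the CD4-CD8- gate (119 higher, 187 lower) they were 61 higher with TMM and with DESeq2 factors, 452 higher and 538 lower at 20 UMIs, 10 and 37 at 200, 1939 and 834 at 1, 26 and 57 with thinned cells, and 284 lower with the mean of per-cell CPM. Lists with a median past 1 log2 unit numbered 6, and 2 at the same gate mix. The CD4 lineage median turned to -0.29 at 200 UMIs, and the CD8 lineage median to 1.12 at 200 UMIs and 0.73 with thinned cells. The CD4+CD8+ difference was 13.7 points with raised thresholds and 40.8 points per 10000. Antibodies lower in OT2 were 4 at the same gate mix, and those higher 6 with capped counts. Unthinned differences in shares were 34.2 points for Cd4, -35.1 for Sox13, -60.5 for Trdc, 5.101 for Itm2a and -29.3 for Ikzf2; thinned to 2500 they were 2.30 for Rag1, -20.8 for Sox13 and -50.9 for Trdc. Alternatives chosen after the data were seen gave, without antibody-poor cells, 37.8 points for the CD4+CD8+ and -55.6 for the CD4-CD8- gate and 233 genes higher in the CD4-CD8- gate; with gates per 10000, 26 lower in the CD4+CD8+ gate and 0 lists past 1. The cause was not tested, except that other minimums and thinning change how many genes are compared. Of the values for 27 named genes and 24 gene lists, 502 stayed within their counting interval or the tolerance of a list. Another 77 left it, and 3 list medians past 1 log2 unit (named above) turned. Values of single antibodies were not part of this tally. Medians nearer 0 were not counted as turned, although several changed sign. Among them, with the gate mix per 10000, were those of the early receptor-response (-0.09), Bcl2 family (-0.04) and NK (0.15) lists. Low OT2 depth limits genes under about 5.09 CPM.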
